A study of Homo sapiens with 4 samples.

Results

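The regions described here are places where a peak of reads was called after pull-down with the even probe set and after no other pull-down. They were chosen from the peak lists themselves. A peak of the even pull-down was kept when it shared 0 bases with any peak of the odd pull-down and any peak of the LacZ pull-down, with strand ignored. In the even list 374 peaks met this rule (74.5%) and 128 did not. The 374 are called even-alone peaks below, and the 128 are called shared even peaks. The 3 lists together held 1766 peaks. By the same rule 399 odd peaks (73.6%) and 599 LacZ peaks (83%) stood alone. Since the rule used the lists, this count is a description and nothing is read from it.

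RD, the cell line behind every library, was derived from an embryonal rhabdomyosarcoma, a tumour of the muscle lineage, and was grown in high-glucose DMEM with serum. The labels give no drug or genetic change. The even and odd groups each hold 1 library of RNA pulled down with biotinylated antisense probes against exon 2 of ZNF609. The exon is the source of the circular RNA circ-ZNF609. The LacZ group holds 1 library pulled down with probes against a bacterial mRNA that human cells lack. The sample of total lysate was not analysed here. No group has a replicate, so no value below has a replicate error, probe sets were compared without p-values, and peaks and genes are not replicates. The RNA was of whole cultures, so more captured RNA per cell and more cells with that RNA cannot be told apart. Even peaks held 482418 reads, odd peaks 279415 and LacZ peaks 219401, and total reads are unknown here.

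An antisense pull-down is a way to isolate an RNA together with the molecules bound to it. Biotinylated oligonucleotides pair with the target, beads recover them, and RNAs that come along can be partners of the target, RNAs that pair with the oligonucleotides directly, or RNAs that stick to the procedure. Splitting the oligonucleotides into an even and an odd set, which lie at alternating places along the target, is a common design. An RNA that is bound through the target is expected with both sets, and an RNA that pairs with single oligonucleotides with 1 of them.

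Bases could be read only around gene starts in the RefSeq table used here, which can hold several starts for a gene and holds a start for 189 of the 239 genes with an even-alone peak. Peaks at the starts of the other genes were not counted. Of the 374 peaks, 5 (1.34%, exact Clopper-Pearson 95% interval 0.435 to 3.09) touched a window from 250 bases before to 50 bases after such a start on GRCh38.p14. The share was 3.01% (1.56 to 5.19) for odd-alone peaks, 2.34% (1.28 to 3.89) for LacZ-alone peaks and 0.781% (0.0198 to 4.28) for shared even peaks, with overlapping intervals throughout. For 4 of the 5 peaks the window belonged to the gene of the peak, and the first bases of the peak are shown so that the captured places can be seen. They are RefSeq sequence on GRCh38.p14, written 5′ to 3′ on the strand of the gene, with transcribed bases in capitals and bases before the annotated start in lower case.
EPHA7, minus strand, chr6:93419530-93419590: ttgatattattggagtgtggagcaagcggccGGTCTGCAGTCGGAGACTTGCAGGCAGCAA
DYNC1I2, plus strand, chr2:171687761-171687790: TTTGGAAAGCCGCGGAGCTGGTGGTGGCTA
DDX27, plus strand, chr20:49219421-49219450: CGCTTCCGGAAGTGGCTTCTGCGACAACAT
CDKN2C, plus strand, chr1:50968721-50968750: CCGTTAAAATGGGGGCGGGTTTTTCAACTC

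The EPHA7 peak is the strongest of these. EPHA7 encodes an ephrin receptor tyrosine kinase that guides growing axons. Its peak, chr6:93419421-93419590, had 615 reads per bin in the even library, where a bin is the 170 bases over which reads were counted, and the deposited p-value of 6.46e-08 placed it at rank 16 of the even list. It reached 31 bases beyond the annotated start at position 93419559, and since peaks are made of whole bins, the edge of the bin sets that reach. The other 3 began 5 to 15 bases after a start in the table and had fewer reads. In DYNC1I2 and CDKN2C that start lies inside the gene span, and the peaks began 292 and 7976 bases after the start of the span. DYNC1I2, a dynein intermediate chain gene, had 183 reads per bin there, the helicase gene DDX27 had 139 and the cyclin-dependent kinase inhibitor gene CDKN2C had 177.5. The bases shown were 54.1% G or C in EPHA7, 60.0% in DYNC1I2, 56.7% in DDX27 and 50% in CDKN2C. The DDX27 peak also lay in the window of STAU1, which starts on the other strand. The remaining peak, in TWNK, with 209 reads per bin, lay in the window of its neighbour MRPL43.

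The even-alone peaks covered 97920 bases and held 292413 reads, 60.6% of the reads in even peaks. Reads per bin ran from 108 to 21973, with a median of 261.25 and quartiles of 172.25 and 455. The deposited p-value ran from 2.47e-12 to 0.00994, with a median of 0.00262. In 108 peaks (28.9%, 24.3 to 33.8) it was below 0.001. The 128 shared even peaks had a median of 378.5 reads per bin (113 to 13307) and a median p-value of 0.000878. The even-alone peaks were thus lower in the median than the shared ones in the same library, while the ranges overlapped. The rule bears on this comparison, since it used the calls.

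**Figure D1:**
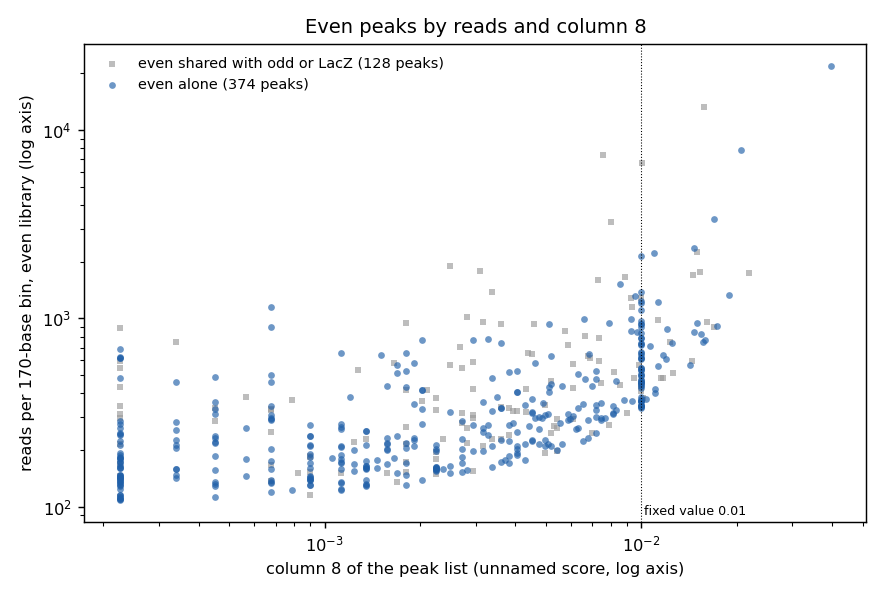
Reads per 170-base bin in the even library (vertical, log axis) against column 8 of the deposited list, an unnamed score (horizontal, log axis), for 374 even-alone peaks (blue circles) and 128 even peaks shared with odd or LacZ (grey squares). The ranges of both kinds of peak overlap, the highest point is an even-alone ANP32B peak with 21973 reads per bin, and a column of even-alone points stands at the fixed value of 0.01.

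Most of these peaks were narrow. A single bin made up 202 of them (54.0%, 48.8 to 59.1) and 148 (39.6%, 34.6 to 44.7) were 2 bins wide. Peaks of 3 bins numbered 21, peaks of 4 bins 2, and 1 peak had 7 bins. Among shared even peaks the 1-bin share was 42.2% (33.5 to 51.2), and wide peaks meet others more easily under the rule. The widest even-alone peak, 1190 bases at chr15:43525441-43526630, lay in MAP1A, which encodes a microtubule-associated protein, with 988.6 reads per bin. MAP1A also held 4 LacZ peaks, the nearest 510 bases away. NES, the gene of the intermediate filament protein nestin, and NCL followed with 680 bases each, at 716 and 153.75 reads per bin. The 21 peaks of 3 bins were 510 bases wide, and those with the lowest p-values lay in RTL9, EIF5B, PDCD11, BAZ2A, DDX27 and NOS1AP and at 1 place outside genes.

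The edge of the rule is as follows. The even-alone peaks of PNN, RILPL1 and NES directly adjoined a peak of another list without sharing a base, with 233, 271 and 716 reads per bin. Those of DDX23 and RRP12 lay 170 bases from a LacZ peak. Just outside the rule, even peaks of HMGN5, KNOP1 and COL6A1 shared 170 of their 510 bases (33.3%) with another list, with 531, 324 and 319.3 reads per bin. Even peaks of SART3 and DDX23 shared 170 bases, 50% of each. Few members sat so close. Within 1000 bases of an odd or LacZ peak lay 17 even-alone peaks (4.55%, 2.67 to 7.18), and the median distance was 421515 bases.

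The absence of an odd or LacZ peak says that none was called there, and the called peaks show how many reads a call took. Among 1-bin peaks of each list, a peak with as many or more reads and the same or a lower column 8 never had a larger p-value, in 10033 ordered pairs of even, 11117 of odd and 15173 of LacZ peaks. The lowest read number called in the odd list at the same or a higher column 8 could therefore be set beside each of the 202 even-alone 1-bin peaks. The even reads reached that number in 200 of them, with a median of 1.39 times and a range of 0.756 to 10.2 times. They reached at least 2 times that number in 54 and at least 4 times in 16. Against the LacZ list, where calls began lower, the median was 3.84 times, with a range of 2.55 to 28.6. Each even-alone peak had itself passed a call, and the lowest reads per bin of any peak were 108 for even, 105 for odd and 38 for LacZ. Reaching the odd and LacZ numbers was thus largely set by the choice of peaks. Whether reads were absent at these places after the other pull-downs was not tested. The reads are not scaled to library size, whose total is unknown here, so the multiples describe the lists and are not enrichments. The wider even-alone peaks were not compared in this way.

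The 1-bin peaks at 4 times or more are in a few genes. DDX27, a helicase gene with a role in making ribosomes, stood at 10.2 times, with 1145 reads per bin where odd calls began at 112. UPF3B followed with 6.58 and 5.85 times, RPTOR with 5.93, SART3 with 5.89, EPHA7 with 5.86, ZFP91 with 5.64 and 4.46, and DDX23 with 5.61. STAU1 stood at 5.21 and 4.21, ANKHD1 at 4.57, GPI at 4.2, ARMC9 at 4.09, and MYPN at 4.14 and 4.02. The 2 peaks below the odd number were in CANX and MACF1, at 0.756 and 0.987 times.

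Of the 374 peaks, 353 lay in 239 annotated genes. They made up 28.2% of the 847 genes that any of the 3 lists touched and 77.9% of the 307 genes with an even peak. The 234 protein-coding ones were 1.17% of the 20056 annotated protein-coding genes. A single even-alone peak was found in 166 genes, 2 in 47 genes and 3 or more in 26 genes. The gene held no odd or LacZ peak anywhere for 251 of the 353 peaks (71.1%, 66.1 to 75.8), in 176 genes. For 35 peaks in 23 genes it also held an odd peak, for 44 peaks in 28 genes a LacZ peak, and for 23 peaks in 12 genes both. The corresponding share without a peak of another list was 67.9% (63.1 to 72.5) of odd-alone and 77.4% (73.5 to 80.9) of LacZ-alone peaks in genes, with intervals that overlap that of the even-alone peaks.

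**Figure D2:**
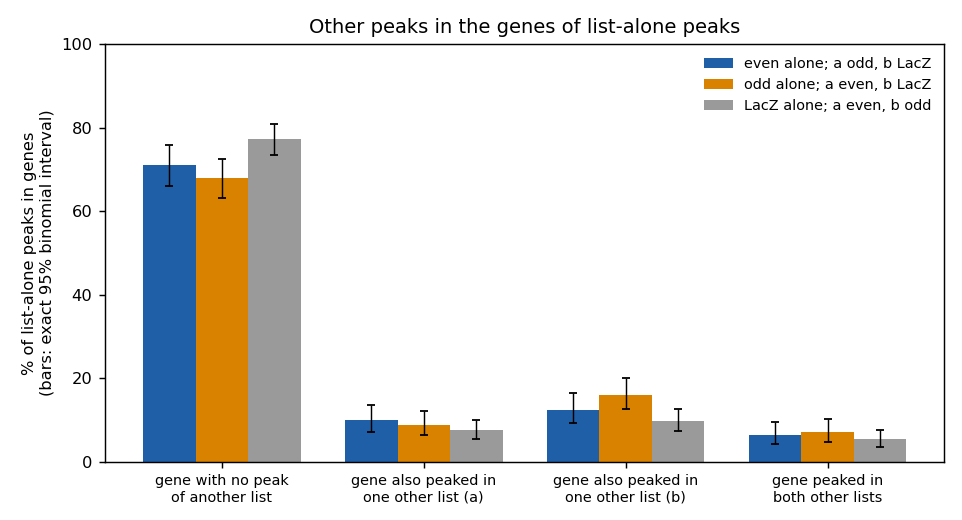
Share of list-alone peaks in genes (vertical, percent, with exact 95% binomial intervals) by whether the gene also held a peak of another list, for even-alone, odd-alone and LacZ-alone peaks. In each list most peaks, 71.1%, 67.9% and 77.4%, lay in a gene with no peak of another list.

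Among the 176 genes with even peaks alone, those with the lowest p-values have varied functions. RPTOR encodes raptor, the scaffold of the growth-regulating kinase complex mTORC1. It had 3 even-alone peaks, with 904 reads per bin at chr17:80923401-80923740, 623 at chr17:80922721-80922890 and 187 at chr17:80742351-80742520. The first of these had a deposited p-value of 5.30e-10, rank 6 in the even list, and the weak peak lay far upstream of the strong pair. UPF3B encodes a factor of nonsense-mediated mRNA decay and had 691, 614 and 459 reads per bin in 3 peaks within 2210 bases of chromosome X. ZFP91, a zinc finger gene, had 4 peaks of 1 bin, also within 2210 bases, with 167, 500, 654 and 270 reads per bin along the gene, and the read-through gene ZFP91-CNTF covers the same bases. The peaks of UPF3B and ZFP91 thus formed tight groups, whereas those of RPTOR spanned 181390 bases.

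DHX38, the gene of a helicase that acts in the second step of splicing, had a pair of peaks 340 bases apart, with 778.5 and 770.5 reads per bin. STAU1, which encodes the double-stranded RNA binding protein staufen, had 651, 526 and 483.5 reads per bin in 3 peaks spread over 27200 bases. GPI, the gene of the glycolytic enzyme glucose-6-phosphate isomerase, had the most reads of the 25 leading genes, with 3387, 2371 and 2228.5 reads per bin in 3 peaks within 2550 bases. EIF3J, a subunit gene of initiation factor eIF3, had 1313.5, 1217, 947 and 132 reads per bin in 4 peaks. The lowest p-value in GPI, 1.02e-06, was larger than the lowest in RPTOR, while each GPI peak had more reads than any RPTOR peak. Column 8 was 0.0109 to 0.0169 in the GPI peaks and 0.000226 to 0.00113 in those of RPTOR.

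RTL9, a gene derived from a retrotransposon, had 1 peak of 2149.3 reads per bin. AMMECR1 spans the same bases, and without strand the genes cannot be told apart. MYPN, which encodes the sarcomere protein myopalladin, had peaks of 1242 and 1207 reads per bin, and ZNF282, a zinc finger gene, 1 peak of 929.5. In RTL9, MYPN and ZNF282 each peak lay on bins with the fixed column 8 value described below. ANGPT2, which encodes an angiopoietin, had 629 and 521.5 reads per bin, at places that also lie in MCPH1. ANKHD1, a gene of an ankyrin repeat protein, had 489 and 331, and the read-through gene ANKHD1-EIF4EBP3 covers the same bases.

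The remaining leading genes all had peaks of at most 650 reads per bin. PHF14 had 565 reads per bin, TNS3 526, MTERF4 511 and TCEAL4 414, each in 1 peak. BAZ2A, a chromatin remodelling gene of the nucleolus, had 650 and 607, ARMC9 458 and 359, and WDR43, a ribosome assembly gene, 381.7 and 291. SETD5, a SET domain gene, had 308 and 242. FAM133B had the most even-alone peaks of all genes, 7 of them over 17170 bases, with 158 to 343 reads per bin. PTPRS, a receptor tyrosine phosphatase gene, had 297 to 349 in 3 peaks, RBM28, an RNA-binding protein gene, 188 to 286.5 in 3 peaks, and CCAR1, a regulator of the cell cycle and apoptosis, 182 to 438 in 3 peaks.

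**Figure D3:**
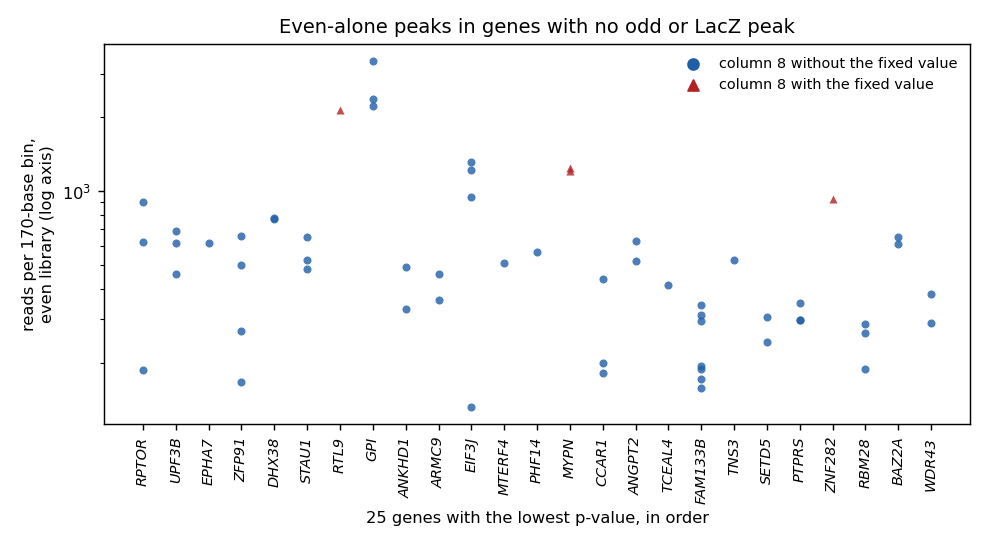
Reads per 170-base bin in the even library (vertical, log axis) of each even-alone peak in the 25 genes with the lowest p-value among genes with no odd or LacZ peak, in order of p-value. Circles are peaks without and triangles peaks with the fixed column 8 value. GPI is highest, with 2228.5 to 3387 reads per bin, and the triangles are in RTL9, MYPN and ZNF282.

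Several even-alone peaks often lay in 1 gene. The 73 genes with 2 or more held 187 of the 353 peaks. Between neighbouring even-alone peaks of a gene there were 114 gaps, with a median of 1955 bases and a range of 170 to 180200. Of these gaps 37 were at most 1000 bases and 17 exceeded 10000. Gene spans include introns, and exon positions were not used here, so distances are genomic and not along spliced RNA.

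Other genes with 3 or more even-alone peaks are described by whether they held peaks of other lists. Without such peaks were KTN1 (the kinesin-binding protein kinectin), NUCKS1 (a nuclear DNA-binding phosphoprotein), SUDS3 (a subunit of the SIN3 histone deacetylase complex), SNRPD1 (a core spliceosomal protein) and ATAD2 (a bromodomain ATPase). NUCKS1 was the highest of these, with 831, 847 and 742 reads per bin, and the 3 SUDS3 peaks were nearly equal, with 275, 275 and 266. KTN1 had 115 to 252 in 4 peaks, SNRPD1 138 to 202 in 3 peaks and ATAD2 157 to 160 in 3 peaks.

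With LacZ peaks elsewhere in the gene were RRP12, TOP1, EIF5B and CHD7. RRP12, a ribosome export factor gene, had 5 even-alone peaks of 197 to 315 reads per bin and 1 LacZ peak. TOP1, the gene of DNA topoisomerase I, had 4 of 231.5 to 768 and 2 LacZ peaks. EIF5B, the gene of the initiation factor that joins ribosomal subunits, had 741.3, 995 and 160.5 reads per bin, and its LacZ peak lay at the start of the gene with 123.5. CHD7, a chromatin remodeller gene, had 148 to 161 in 3 peaks. COL4A1, which encodes a basement membrane collagen, had 4 even-alone peaks, 3 odd and 3 LacZ peaks, at separate places.

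In 23 of the 239 genes the even list also held a peak shared with odd or LacZ. ANP32B is the clearest case. It encodes an acidic nuclear phosphoprotein that binds histones, and its 4 even-alone peaks had 360, 431, 7793 and 21973 reads per bin from the start toward the end of the gene. They held 20.6% of all reads in even-alone peaks. The highest, chr9:98011121-98011460, had the most reads per bin of the even list but only rank 230 by its deposited p-value of 0.00181, beside the highest column 8 value among even-alone peaks, 0.0397. It lay 850 bases from an odd peak of 857 reads per bin at a place where the even library had 13307. The odd list called this neighbour and a second shared place, with 387.5 odd and 7375 even reads, and not the 4 even-alone places. Annotated pseudogenes carry the name of ANP32B, so reads may have been divided between it and those copies at alignment.

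DDX27 shows the same arrangement. Its strongest even-alone peak, chr20:49224861-49225030, had the lowest p-value of all members (2.47e-12, rank 3 of the even list) and lay 1530 bases from an odd peak. At the 2 shared places of DDX27 the even library had 1779 and 542 reads per bin and the odd library 302.7 and 298. NCL, the gene of the nucleolar protein nucleolin, had 5 even-alone peaks of 132 to 843 reads per bin. They lay toward the end of the gene from a place called in all 3 lists, where even, odd and LacZ had 3235.5, 550.5 and 112 reads per bin. RDX, the gene of radixin, which ties actin to the cell membrane, had 3 even-alone peaks of 210 to 261 reads per bin and 2 shared ones of 344 and 249. In RDX the even-alone and shared peaks were of similar height, unlike in NCL and ANP32B.

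**Figure D4:**
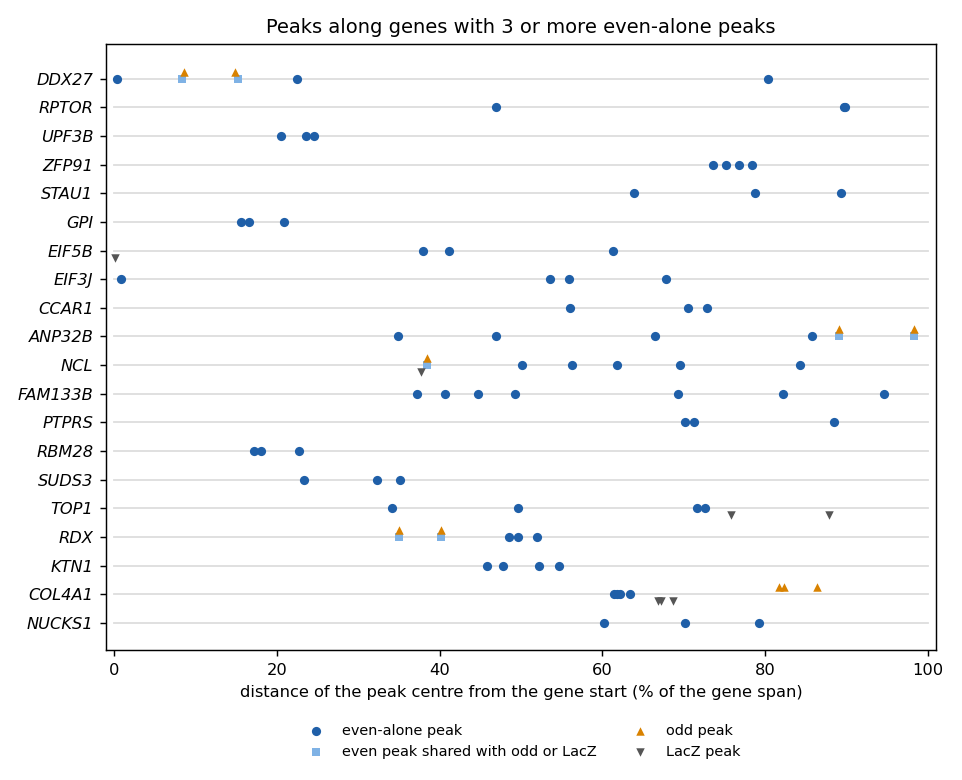
Peaks along the 20 genes with 3 or more even-alone peaks and a known strand, as the distance of the peak centre from the gene start in percent of the gene span. Circles are even-alone peaks, squares even peaks shared with odd or LacZ, upward triangles odd and downward triangles LacZ peaks. In DDX27, ANP32B, NCL and RDX even-alone peaks stand beside shared ones, and in COL4A1 the 3 lists peak at separate places.

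For the 58 even-alone peaks in genes with an odd peak, the nearest odd peak of the gene lay at a median of 5015 bases, with 10 within 1000 bases and 22 beyond 10000. For the 67 in genes with a LacZ peak the median was 7140 bases, with 8 within 1000 bases and 29 beyond 10000. The strongest of these by p-value after DDX27 were SART3 (771 reads per bin), DDX23 (1516), EIF5B, ANP32B, KNOP1 (419 and 484), NCL and PDCD11 (642.3). SART3 encodes a recycling factor of the spliceosome, DDX23 a spliceosomal helicase, KNOP1 a nucleolar protein, and PDCD11 a factor of small ribosomal subunit assembly. SART3 and DDX23 had 3 LacZ peaks each and 0 odd peaks. ZNF609, the target of the probes, and CKAP5, the microtubule polymerase gene in the title of the series, had 0 even-alone peaks, since their even peaks overlapped odd ones.

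Genes were then grouped by function. The groups were chosen with earlier results of these data known, the height of ANP32B among them, so the counts are not independent of these data. The lists do not hold every gene of a function, and 141 of the 239 genes are in none, so each share describes its list alone. Genes named below as outside a list were picked after their values were seen. For each group the genes with an even-alone peak are counted among those of its genes that any peak list touched, beside 28.2% for all genes. Among DEAD and DEAH box helicases, the RNA-remodelling ATPases, 7 of 10 had an even-alone peak, with an odd peak in 2 and a LacZ peak in 4. These were DDX27, DHX38, DDX23, DDX46 (346 reads per bin), DDX21 (170), DDX1 (144) and DDX49 (211). Of the 7, DHX38, DDX46, DDX21 and DDX1 had no odd or LacZ peak.

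In the list of acidic nuclear and high mobility group proteins, which bind histones or nucleosomal DNA, 9 of 13 genes had an even-alone peak. They carried 20 peaks, 5 of them in NCL. Of the 9, 3 had no odd or LacZ peak. In the list 7 genes had an odd and 5 a LacZ peak. All 3 listed ANP32 genes with a peak were among the 9. ANP32A had 447 and 374 reads per bin, and ANP32E, with no odd or LacZ peak, 465 and 556.5. SUPT16H, a subunit gene of the histone chaperone FACT, had 355.3 and 249 and no odd or LacZ peak. The list also holds PARP1, the DNA damage sensor gene, which is of neither kind. PARP1 had 335 in both of its even-alone peaks and 2 LacZ peaks elsewhere. HMGB2 had 947 and HMGN5 213, and each of these genes also held 1 odd peak.

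The splicing and mRNA processing list had an even-alone peak in 18 of 39 genes (46.2%), with an odd peak in 17 and a LacZ peak in 17. Of the 18, 10 had no odd or LacZ peak. HNRNPC, an hnRNP core protein gene, had 505.5 and 318 reads per bin, and SFPQ, a paraspeckle protein gene, had 285. SREK1 had 251, PRPF38B 218 and PNISR 215, and these 3 encode arginine-serine rich splicing proteins or their partners. Unlike the other genes named here, SREK1 also had an odd and a LacZ peak. Its even-alone peak, chr5:66170121-66170290, stood beside a shared even peak of 1891.3 reads per bin at chr5:66170461-66170970. The membrane traffic list had 5 of 13 genes (38.5%), with the endocytic adaptor gene EPS15L1 at 287, KTN1, SEC62 at 309.5, the chaperone gene CANX at 349 and 907, and GOLIM4 at 133 reads per bin.

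The translation and mRNA decay list had 7 of 21 genes (33.3%). Beside RPTOR, UPF3B, EIF5B and EIF3J these were the mRNA-binding protein gene IGF2BP2 (474.5 reads per bin), EIF4G1 (228) and the stress kinase gene EIF2AK4 (334.5 and 346). Chromatin and transcription genes had 13 of 42 (31.0%), with an odd peak in 24 and a LacZ peak in 21. They included ZFP91, SETD5, BAZ2A, CHD7, RAI1 (493.5, on bins with the fixed column 8 value), the corepressor gene NCOR1 (159 and 384) and CHD4 (211). The ribosome assembly list had 7 of 23 (30.4%), namely KNOP1, PDCD11, WDR43, RRP12, NOLC1 (874.5), UBTF (160.5 and 129) and GNL2 (178). DDX27 was counted among the helicases and is outside this list. The shares of these lists lay near the 28.2% of all genes.

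The cytoskeletal lists also had shares near or below that of all genes. Actin, myosin and membrane linker genes had 8 of 26 (30.8%), with EPB41L2 (437 reads per bin), RDX, AHNAK (320.5), MYO6 (218.5), CALD1 (857.5 and 403), MYH10 (203.5 and 226), NES (716 and 565) and VCL (163). Of these MYO6 and VCL had no odd or LacZ peak. The microtubule and spindle list had 5 of 22 (22.7%), with an odd peak in 11 and a LacZ peak in 14. The 5 were MAP1A, the tubulin-binding protein gene STMN1 (437), MAP7D3 (213), DYNC1I2 and the crosslinker gene MACF1 (224). CLIP3 (317) and KLC1 (222), outside the list, had even-alone peaks and no odd or LacZ peak. Centrosome, kinetochore and cohesin genes had 4 of 14 (28.6%), with AKAP9 (221), CDK5RAP2 (174), CEP55 (137) and the condensin gene SMC2 (136 and 135).

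Muscle genes had 2 of 10 (20%), MYPN and the cardiac actin gene ACTC1 (279 reads per bin). Of 12 markers of the muscle lineage, 4 had an even peak, 3 an odd and 1 a LacZ peak, and ACTC1 was the 1 with an even-alone peak. MYOD1, MYF5, MYOG and PAX7 had no peak in any list. Of 9 markers of other lineages, 0 had an even peak and 1 had an odd peak. Peak lists hold only what was called, so these counts do not test the identity of the cells.

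The extracellular matrix list had 3 of 11 (27.3%), COL4A1, LAMC1 (161) and COL3A1 (153), and each of these had LacZ peaks elsewhere. The collagen gene COL2A1 (160 and 170), outside the list, had no odd or LacZ peak. The receptor and signalling list had 2 of 7, EPHA7 and PTPRS. The DNA replication and repair list had 3 of 6, among them TOP1 and RIF1 (132). The ubiquitin and proteasome list had 2 of 12, RNF20 (240) and PSMD1 (151). PSMD7 (639.5) and TRIM25 (159.5 and 210), outside that list, had even-alone peaks and no odd or LacZ peak. The heat shock list had 2 of 7, HSP90AA1 (301 and 163.5) and CCT5 (172). The nuclear pore list had 1 of 7, SYNE1 (544, also on such bins), and the glycolysis and metabolism list 1 of 5, GPI. The lists of noncoding RNAs and of immune, blood, endothelial and epithelial markers had 0 genes with an even-alone peak. The 141 genes outside the lists were not grouped.

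**Figure D5:**
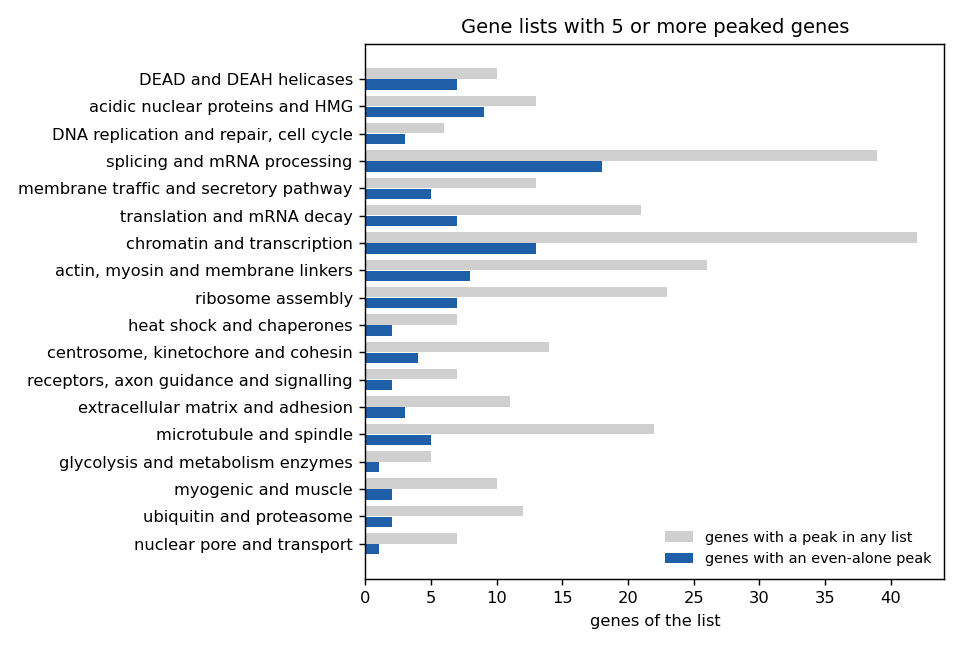
Number of genes with a peak in any list (grey bars) and with an even-alone peak (blue bars) for each gene list with 5 or more such genes, in order of the share. The helicases (7 of 10) and the acidic nuclear and HMG proteins (9 of 13) have the highest shares, and chromatin genes (13 of 42) and actin genes (8 of 26) lie near the 28.2% of all genes.

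Along their genes the even-alone peaks leaned toward the end. Strand was known for the genes of 279 of the 353 peaks, and the median peak centre lay at 61.8% of the gene span from its start. The last 20% of the span held 29.7% (24.4 to 35.5) of these peaks, and the first 20% held 10.4% (7.07 to 14.6). Shared even peaks had 44.3% (34.2 to 54.8) in the last and 15.5% (8.92 to 24.2) in the first 20%, with intervals that overlap those of the even-alone peaks. The median distance from the end of the gene was 14286 bases for even-alone and 13115 bases for shared peaks.

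Column 8 of the deposited lists was not part of the rule, but the deposited p-value, and with it each call, moved with column 8 as described above. It is an unnamed score in equal steps, the smallest being 0.000226, and in some bins it holds a fixed value of 0.01 in place of a step. The fixed value was present in 52 even-alone peaks (13.9%, 10.6 to 17.8) and in 5 of the 128 shared even peaks (3.91%, 1.28 to 8.88). These intervals did not overlap, but they cover counting error only, since peaks are not replicates. It was present in 5.01% (3.09 to 7.64) of odd-alone and 27.2% (23.7 to 31.0) of LacZ-alone peaks. The 52 peaks had a median of 519 reads per bin (336 to 2149.3), against 226 (108 to 21973) for the other 322. Where the value was absent, the median score was 8 steps in even-alone and 14 steps in shared even peaks. It was 8 steps in odd-alone and 10 steps in LacZ-alone peaks, so the lower score was not particular to even-alone peaks.

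Peaks with the fixed value made up most of those outside genes. Of the 374 even-alone peaks, 21 (5.61%, 3.51 to 8.46) lay outside annotated genes, and 18 of these held the fixed value (85.7%, 63.7 to 97.0), against 34 of the 353 in genes (9.63%, 6.76 to 13.2). The strongest lay at chr22:42355671-42356010 with 1375 reads per bin and chr21:42026381-42026720 with 1113.5. Of the 128 shared even peaks 1 (0.781%, 0.0198 to 4.28) lay outside genes, and of the odd-alone and LacZ-alone peaks 1.5% (0.554 to 3.24) and 13.0% (10.4 to 16.0). The part of the fixed value in these shares was not tested.

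For 49 of the 239 genes an annotated pseudogene carries the gene's name, among them NCL, EIF3J, TOP1, HNRNPC and NUCKS1. As for ANP32B, their reads may have been divided between the gene and such copies at alignment, which was not tested. The same holds for CDK11B, with 370 and 287 reads per bin, and CDK11A, with 200, which are neighbouring copies, and for GAGE1, with 131 and 138, a member of a repeated family. These 3 genes were chosen after their values were seen. In addition 30 even-alone peaks (8.02%, 5.48 to 11.3) lay in more than 1 gene.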

How the data were processed

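The authors deposited 1 peak list per pull-down, and Piranha is named as the caller in the names of the lists. The build was GRCh38, and STAR 2.5.2b, SAMtools, Picard, bedtools, Trimmomatic and bcl2fastq 2.0.2 are named per the submitters' processing notes, without roles or settings. The deposited signal is the reads per bin of 170 bases, averaged over joined bins, read from the values: 100% of peaks hold whole reads (tolerance 0.02), and no scaling was seen. The deposited p-value is below 0.01 in each list. The deposited column 8 is an unnamed score. The library totals are unknown here.

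Peaks were compared by overlap of at least 1 base and placed in RefSeq gene spans of GRCh38.p14 (most overlapping bases, then protein-coding, then shorter) with pandas 2.3.3, and strands came from the RefSeq table of gene starts. Exact Clopper-Pearson 95% intervals (scipy 1.17.1) cover counting error only. Overlap counting and the reading of column 8 were tested on simulated peaks. Members and gene lists were chosen with earlier results of these data known. Genes were named by rule: the 25 with the lowest p-value and no odd or LacZ peak, those with 3 or more even-alone peaks, up to 8 of each gene list, the 10 widest peaks, the peaks nearest the edge of the rule, the 10 strongest in genes with other peaks, and ZNF609 and CKAP5. Some genes named by this rule are not reported here. Exon positions were not used here. The alternatives are under the dependence on processing.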

Additional observations from a re-analysis of the deposited data

How the results depend on the processing

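Each of the 7 results was recomputed under the alternatives, which gave 49 values, of which 38 stayed within 1.5 times (counts) or inside the 95% interval of the reported value (shares and the median). These include all values for distances of 170 and 1000 bases, for a cover of at least 50% of the even peak, for lists trimmed to the length of the even list and for peaks given to every gene they overlap. With the even list limited to p below 0.001, 108 even-alone peaks in 72 genes were left, 74 of them in genes with no odd or LacZ peak, with a median of 466.75 reads per bin. With all 3 lists so limited there were 137 peaks in 90 genes, 109 in genes without other peaks, with a median of 484 and a 1-bin share of 48.2%. Fewer peaks enter by construction. Without peaks over the fixed column 8 value the median was 226 reads per bin and the share outside genes 0.932%. No paired analysis was possible because each probe set has 1 library. With no replicates and no library totals, differences in recovery between probe sets cannot be measured here.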

Other observations

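Of the 374 even-alone peaks, 5 lay in long noncoding RNA genes, named here after their values were seen. LINC02147 had 655 reads per bin, LOC124904577 433.5, RNASEH1-DT 241, LOC105372841 182 and LINC01297 158. The first of these lay wholly, and LOC124904577 in part, on bins with the fixed column 8 value. Chromosome 10 held 27 even-alone, 7 odd-alone and 31 LacZ-alone peaks, and chromosome 14 held 20, 8 and 14. Chromosome 3 held 15, 25 and 18. These numbers are described without a test, and the chromosomes were picked after the counts were seen.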
